A study of Mus musculus with 9 samples.

Results

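Nuclear receptors are transcription factors that read small fat-soluble ligands such as steroids, retinoids, vitamin D, thyroid hormone and oxysterols. Of 45 receptor genes chosen by family membership, 43 had a probe set that the platform table pairs with that gene alone, and each had exactly 1. These 43 were set among 21789 probe sets of 19938 genes on the arrays. Nr1h2 and Nr2e3 had no probe set by this rule and were not analysed here.

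Most nuclear receptors carry a zinc-finger DNA-binding domain and a ligand-binding domain, and recruit corepressors or coactivators to their target genes. Many bind DNA with a retinoid X receptor (RXR) as partner, the steroid receptors bind as pairs of their own kind, and orphan receptors such as the NR4A group act without a classical ligand and are controlled mainly by how much of them is made. In marrow stroma they are known for setting the balance of fat and bone cell formation, for circadian control of stromal gene expression and for the stromal answer to glucocorticoids and vitamin D.

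The cells came from mice of genotype Cxcl12+/gfp, in which a green fluorescent protein sits in 1 allele of the Cxcl12 gene, and lineage-negative, brightly fluorescent marrow cells had been sorted. These are CXCL12-abundant reticular (CAR) cells, stromal cells that feed blood stem cells and B cell precursors. The treatment was granulocyte colony-stimulating factor (G-CSF, 250 µg/kg per day) for 5 days in 5 samples and phosphate-buffered saline (PBS) for 5 days in 4, and the RNA was hybridised to Affymetrix Mouse Gene 1.0 ST arrays. The labels call the samples biological replicates, give no age, and do not say whether each is 1 animal or a pool. Their source names speak of pre-B colonies and, for 4 G-CSF samples, of an Hspa9 genotype, against the titles and protocols, and the titles were followed. Levels below are log2 RMA intensities, changes are G-CSF minus PBS in log2, SE is the limma standard error, and adjusted p-values are Benjamini-Hochberg values over all 21789 probe sets.

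Cxcl12, the gene behind the sort, lay at or above percentile 99.88 of the probe sets on each of the 9 arrays. By sign of the first principal component (29.8% of the variance) the arrays formed a pair of sets, each with G-CSF and PBS arrays. Set 1 was G-CSF replicates 1 to 3 with PBS replicates 1 and 2. Set 2 was G-CSF replicates 4 and 5 with PBS replicates 3 and 4. The labels do not name these sets, which were drawn from the same values that were tested. Adjusted p-values from fits with the set as a block may therefore be too small. PBS replicate 3 stood apart, at 84.5 on this component against 40.8 for the next array, and its values were also the most compressed (interquartile range 2.45, against 2.71 to 2.99 on the other 8 arrays). G-CSF replicates 4 and 5 were the closest pair, with an SD of 0.43 for their difference over probe sets. Markers of other marrow cells also differed between the groups. The mean over 14 neutrophil genes was 8.79 to 9.61 on G-CSF arrays and 7.86 to 9.32 on PBS arrays, and 1 gene rose (Mmp9). The mean over 10 smooth muscle and pericyte genes was 6.41 to 6.69 against 5.85 to 5.95, and 2 rose. The mean over 11 B cell genes was 4.59 to 4.97 in G-CSF and 5.27 to 5.49 in PBS, and 3 fell (Cd79a, Ms4a1 and Ebf1, of which stroma also makes Ebf1). Ebf1 averaged 9.19 in G-CSF and 10.10 in PBS, and without it the mean was 4.13 to 4.56 in G-CSF and 4.78 to 5.01 in PBS. That over 8 erythroid genes was 4.52 to 4.77 in G-CSF and 4.97 to 6.12 in PBS, and 2 fell. Of 12 macrophage genes, 1 fell (Vcam1, which stroma also makes), with means of 5.43 to 5.71 in G-CSF and 5.67 to 6.02 in PBS. Of 6 osteoblast genes 1 rose and 1 fell, with means of 7.16 to 7.45 in G-CSF and 7.62 to 7.86 in PBS. Of 10 endothelial and 7 T and NK cell genes 0 passed. Of the 12 genes that mark CAR cells themselves, 7 fell, with means of 9.73 to 9.77 in G-CSF and 10.46 to 10.69 in PBS.

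In PBS the receptors fell into 3 classes of signal. On each of the 4 PBS arrays, 12 of the 43 lay above the 75th percentile of the tested probe sets. They were the clock receptors Nr1d1 and Nr1d2, the thyroid hormone receptor Thra, the vitamin D receptor Vdr, the retinoid receptors Rara, Rarg and Rxra, the fatty acid receptor Ppard, the glucocorticoid receptor Nr3c1, the oestrogen receptor Esr1, the testicular orphan receptor Nr2c2 and the immediate early receptor Nr4a1. Their PBS means ran from 7.07 to 10.46. A further 19 lay below the median on each PBS array, with means of 3.07 to 5.18. Among these were receptors best known from liver, gut and kidney (Hnf4a, Hnf4g, Nr1h4, Nr1i2, Nr1i3, Nr0b2), from steroid-making tissue (Nr5a1, Nr0b1), from brain and eye (Nr2e1, Rorb), and also Nr3c2, Esr2, Pgr, Thrb and Rxrg. The remaining 12 lay between, with means of 5.03 to 7.01, among them Rora, Rxrb, Nr1h3, Nr2f2, Nr2f6, Esrra, Nr4a2 and Nr4a3. Probe sets differ in how strongly they bind their transcript, so the classes describe signal and do not rank transcript numbers. Low signal was not read as absence, since the values come without detection calls.

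**Figure D1:**
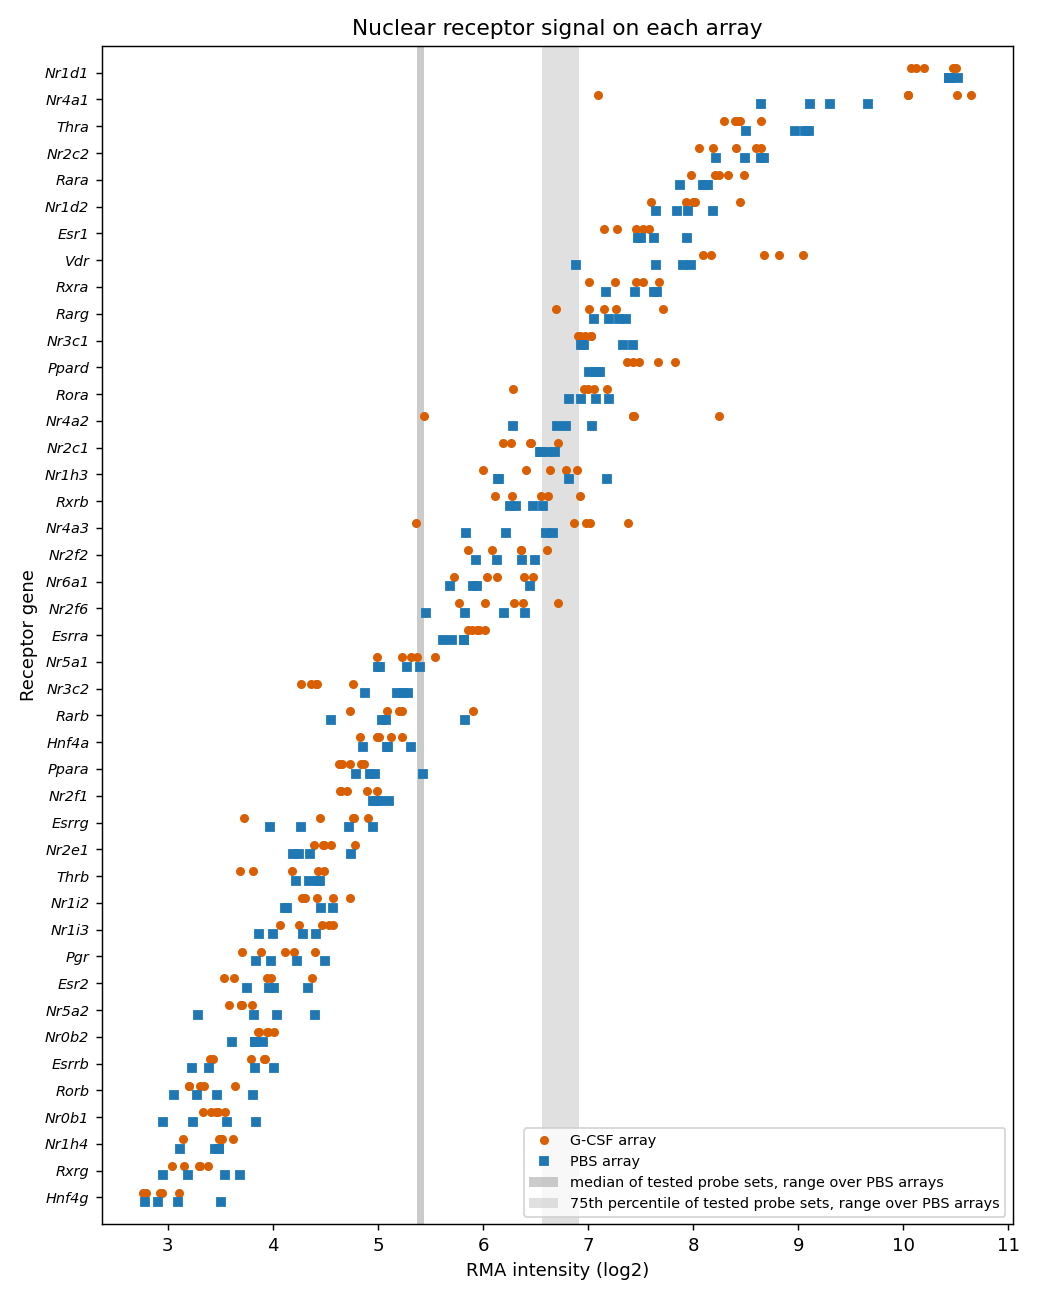
Log2 RMA intensity (horizontal axis) of 43 nuclear receptor genes (rows, ordered by PBS mean), with 1 circle per G-CSF array and 1 square per PBS array. Grey bands give the range over the PBS arrays of the median and of the 75th percentile of the 21789 tested probe sets. On them 12 receptors lie above the 75th percentile on all 4 PBS arrays and 19 below the median on all 4.

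The receptors were called after G-CSF at about the share of all probe sets. Of 43 receptors 1 fell (Nr3c2), 0 rose and 42 did not pass the threshold of adjusted p under 0.05 in limma, where 1.62% of all probe sets changed (0.877% fell and 0.743% rose). At an unadjusted p under 0.05 there were 4 receptors (Nr3c2, Vdr, Ppard and Thra), against 9.22% of all probe sets. The median change of the 43 was 0.02, against 0.01 over all probe sets, and the changes ran from -0.70 to 0.95. The median size of change without its sign was 0.15 for the receptors and 0.14 for all probe sets. All G-CSF arrays lay above all PBS arrays for 3 receptors (Vdr, Ppard and Esrra) and below them for 1 (Nr3c2), together 9.30% of the receptors, against 4.65% of all probe sets (2.18% above and 2.46% below). In sorted bulk samples, fewer cells that carry a transcript and less of it per cell cannot be told apart.

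**Figure D2:**
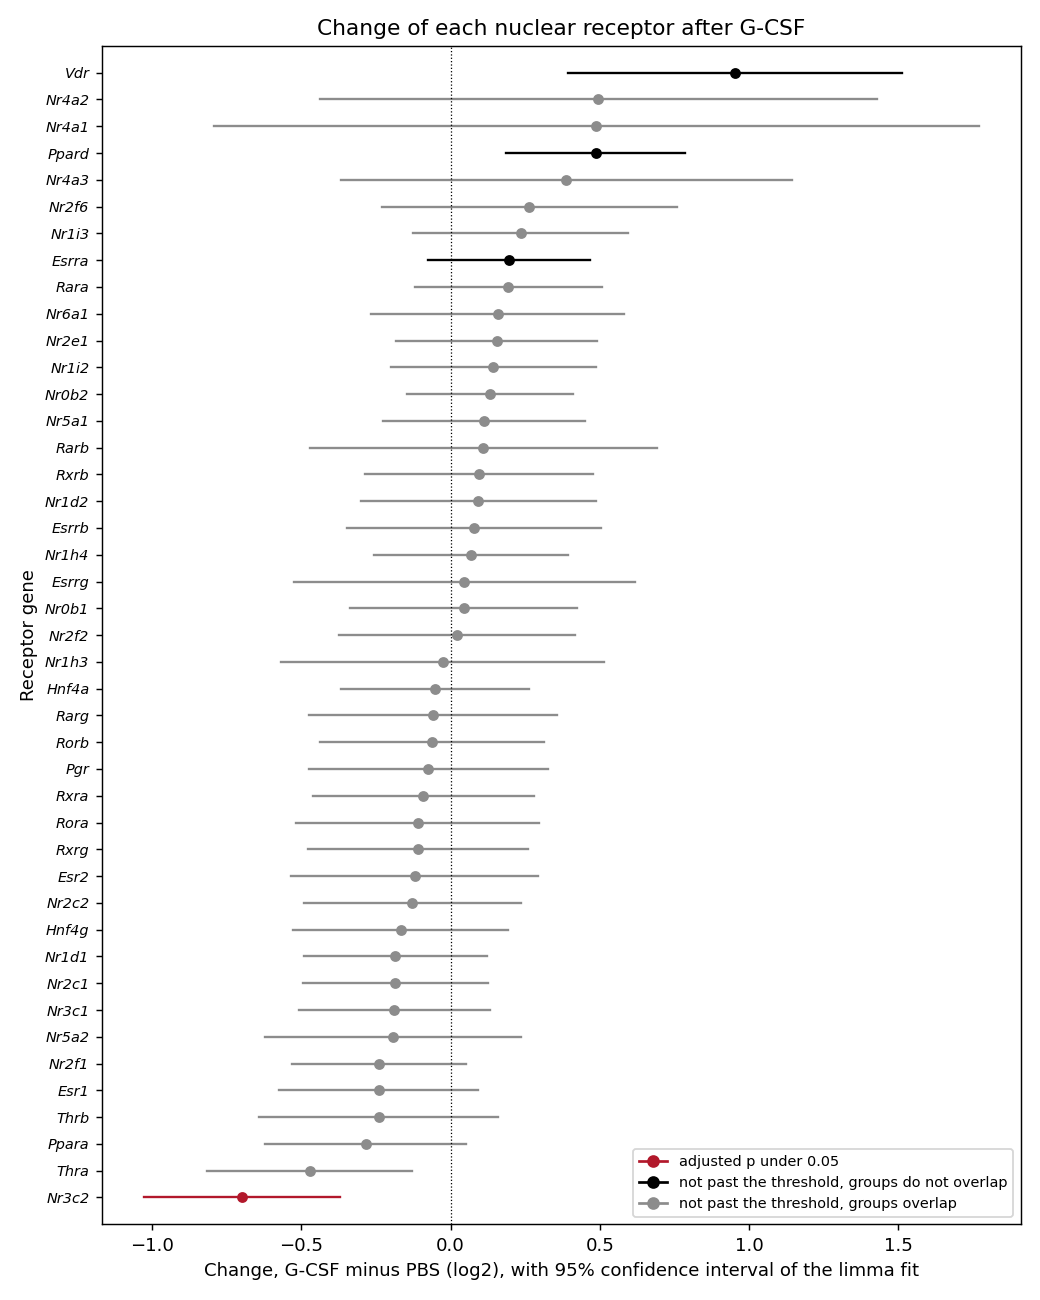
Change of each of the 43 receptors (rows), G-CSF minus PBS in log2, as the limma estimate (point) with its 95% confidence interval (line). Nr3c2 at -0.70 is the receptor past the threshold; Vdr at 0.95 has the highest estimate, and the intervals of Nr4a1 and Nr4a2 are the widest.

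Among the corticosteroid receptors, Nr3c2 encodes the mineralocorticoid receptor, which binds aldosterone and also glucocorticoids. Nr3c2 read 4.27, 4.42, 4.76, 4.36 and 4.41 on G-CSF arrays 1 to 5, against 5.29, 5.18, 4.88 and 5.24 on PBS arrays 1 to 4. Every G-CSF array lay below every PBS array, with G-CSF replicate 3 and PBS replicate 3 the closest. The means were 4.44 ± 0.19 in G-CSF (SD, n = 5) and 5.14 ± 0.18 in PBS (SD, n = 4), a fall of 1.62-fold (change -0.70, SE 0.15, limma adjusted p = 0.0395). The signal was dim, below the median of the tested probe sets on each PBS array. The change was -0.75 within array set 1 and -0.67 within set 2, and with the set as a block it was -0.71 (adjusted p = 0.0180). With 1 array left out at a time Nr3c2 passed in 2 of 9 fits, without G-CSF replicate 3 (0.0314) or PBS replicate 3 (0.0229), and missed the threshold in the other 7, at 0.0862 (G-CSF replicate 2 left out) to 0.121 (PBS replicate 1 left out). With array weights it passed, where 2.04% of all probe sets were called, and in neither set alone (0.927% called in set 1 and 0.271% in set 2). It also missed the threshold with G-CSF replicates 4 and 5 averaged (0.0983), with all probe sets of the table (0.102), after quantile normalisation (0.0582) and after median centring (0.0519). Nr3c2 passed with trend and robust eBayes (limma adjusted p = 0.0366) and with the mean over a gene's probe sets (0.0322). Without both replicates 3, a choice made after seeing the data, it passed too (0.0137). The mean over B cell markers without Ebf1 was also lower in G-CSF (4.13 to 4.56) than in PBS (4.78 to 5.01). So were those over erythroid (4.52 to 4.77 against 4.97 to 6.12) and osteoblast markers (7.16 to 7.45 against 7.62 to 7.86). The mean over CAR cell markers was lower too (9.73 to 9.77 against 10.46 to 10.69), and that over pericyte markers higher (6.41 to 6.69 against 5.85 to 5.95). The part of these cells in the Nr3c2 change was not tested.

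Nr3c1, the glucocorticoid receptor, did not pass. It read 7.03, 6.92, 6.97, 6.90 and 7.03 on the G-CSF arrays, against 7.33, 7.42, 6.96 and 6.93 on the PBS arrays. The groups overlapped, and PBS replicates 1 and 2 were the high ones. The change was -0.19 (SE 0.15, limma adjusted p = 0.843, 95% interval -0.51 to 0.13), with -0.40 in set 1 and 0.02 in set 2. Of 12 measured glucocorticoid receptor targets 0 rose and 0 fell, with a median change of -0.04. The smallest p was that of Ddit4, an inhibitor of mTOR signalling (0.82, limma adjusted p = 0.394).

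Vdr, the vitamin D receptor, had the highest estimate of the family. It read 8.67, 9.04, 8.81, 8.17 and 8.09 on G-CSF arrays 1 to 5, against 7.90, 7.98, 6.89 and 7.64 on PBS arrays 1 to 4. Every G-CSF array lay above every PBS array, and PBS replicate 3 was the lowest. The means were 8.56 ± 0.41 in G-CSF (SD, n = 5) and 7.60 ± 0.50 in PBS (SD, n = 4), a 1.94-fold difference (change 0.95, SE 0.26) that did not pass over all 9 arrays (limma adjusted p = 0.114). With the array set as a block Vdr passed (0.88, limma adjusted p = 0.0112). That fit called 2.74% of all probe sets and 2 of the 43 receptors, Vdr and Nr3c2. Because the sets were drawn from these same values, its adjusted p-values may be too small. Within the sets the change was 0.90 (set 1) and 0.87 (set 2). Without PBS replicate 3 it was 0.71 (adjusted p = 0.206), in a fit that called 1.46% of all probe sets. The mean of the neutrophil markers was 8.79 to 9.61 on G-CSF arrays and 7.86 to 9.32 on PBS arrays, and that of the pericyte markers 6.41 to 6.69 against 5.85 to 5.95. Their part in the Vdr values was not tested. Of 8 listed vitamin D receptor targets, Cyp24a1, Spp1, Bglap and Cdkn1a had no probe set by the rule. Of the 4 measured targets 0 rose and 0 fell. Their smallest p was that of Car2, carbonic anhydrase 2 (-1.12, limma adjusted p = 0.127), which is also an erythroid marker. Tnfsf11, the osteoclast factor RANKL, named after its values were seen, was at 0.68 with every G-CSF array above every PBS array, and did not pass (limma adjusted p = 0.239, and 0.0569 with the set as a block).

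**Figure D3:**
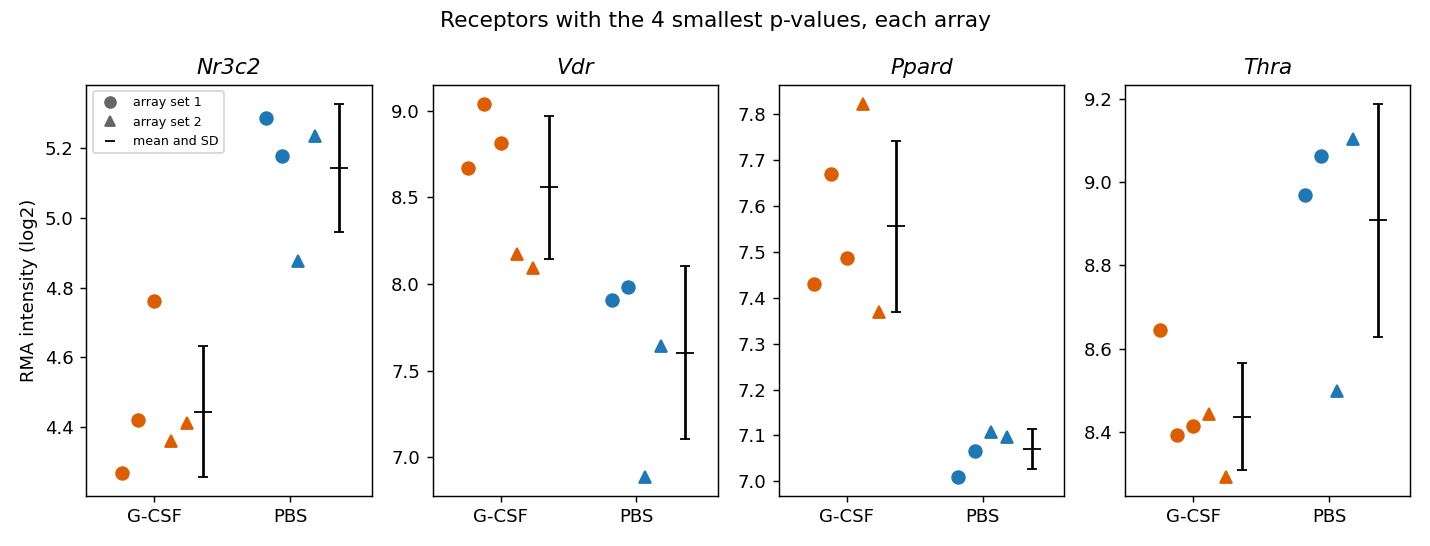
Log2 RMA intensity (vertical axis, a separate scale per panel) of the 4 receptors with the smallest p on each array, with circles for array set 1, triangles for set 2, and the mean with SD beside each group. Groups do not overlap for Nr3c2, Vdr and Ppard, while PBS replicate 3 (8.50) lies among the G-CSF arrays for Thra.

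Ppard, a fatty acid receptor that drives fat oxidation, did not pass, although its groups did not overlap. It read 7.43, 7.67, 7.49, 7.82 and 7.37 on the G-CSF arrays, against 7.01, 7.07, 7.11 and 7.10 on the PBS arrays. The PBS values were tight (SD 0.04) and the G-CSF values wider (SD 0.19), with a change of 0.49 (SE 0.14, limma adjusted p = 0.142, 95% interval 0.18 to 0.79). It was 0.49 in each array set, with an adjusted p of 0.0780 with the set as a block. Ppara, the relative best known from liver, read 4.73, 4.66, 4.84, 4.63 and 4.86 in G-CSF and 4.93, 5.43, 4.79 and 4.97 in PBS, and its estimate had the opposite sign (-0.28, SE 0.16, limma adjusted p = 0.678). Pparg, the adipogenic member of this group and not among the 43, fell (-1.51, limma adjusted p = 4.38e-04). Of 11 measured PPAR targets 1 fell, Acadm, an enzyme of mitochondrial fat oxidation (-0.77, limma adjusted p = 0.00747), and 0 rose. With the array set as a block Cpt1a, the entry step of mitochondrial fat oxidation, also passed (0.62, adjusted p = 0.0321), as did Fabp4, a fatty acid carrier (-1.33, adjusted p = 0.0412), both named after their values were seen. These set-block adjusted p-values may be too small, since the sets came from the same values.

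The retinoid X receptors, common partners of the other receptors, did not pass. Their changes ran from -0.11 to 0.10. Rxra read 7.01 to 7.67 in G-CSF (median 7.46) and 7.17 to 7.65 in PBS, and Rxrb 6.11 to 6.93 (median 6.55) and 6.25 to 6.57. Rxrg read 3.30, 3.15, 3.04, 3.38 and 3.30 in G-CSF, against 3.19, 2.96, 3.54 and 3.69 in PBS (change -0.11, SE 0.17, limma adjusted p = 0.961). Its sign turned without PBS replicate 4, to 0.0043. The retinoic acid receptors bind the vitamin A product retinoic acid together with an RXR. Rara read 8.33, 8.25, 8.20, 8.49 and 7.98 in G-CSF, against 8.13, 8.09, 7.87 and 8.14 in PBS. The ranges overlapped, and the change of 0.19 (SE 0.14) did not pass (limma adjusted p = 0.825, 95% interval -0.12 to 0.51). Rarb and Rarg were at 0.11 and -0.06.

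Some genes known to respond to retinoic acid did change while its receptors did not pass. Among the 10 with a probe set 2 rose and 1 fell, where 1.62% of all probe sets were called. Dhrs3, an enzyme that turns retinal back to retinol, fell and averaged 7.84 ± 0.61 in G-CSF (SD, n = 5) and 9.65 ± 0.42 in PBS (SD, n = 4; change -1.81, limma adjusted p = 0.00837). Tgm2, a transglutaminase, rose by 1.02 (limma adjusted p = 0.0151, past the threshold in 8 of 9 fits with 1 array left out), and Rarres1 rose by 1.02 (limma adjusted p = 0.0419). Rarres1 did not pass without PBS replicate 3 (adjusted p = 0.101) or G-CSF replicate 3 (0.104), and passed in 2 of 9 such fits. The median change of the list was 0.05. Rarb, itself a known target of retinoic acid, is 1 of the 7.

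Thra encodes thyroid hormone receptor alpha. It read 8.64, 8.39, 8.41, 8.44 and 8.29 in G-CSF, against 8.97, 9.06, 8.50 and 9.10 in PBS. G-CSF replicate 1 lay above PBS replicate 3, the only overlap of the groups. The change was -0.47 (SE 0.16) and did not pass (limma adjusted p = 0.253), at -0.53 in set 1 and -0.43 in set 2. Without PBS replicate 3, where the groups no longer overlap, it was -0.61 (adjusted p = 0.0529). Thrb was dim, at 3.81, 4.19, 3.68, 4.48 and 4.43 in G-CSF and 4.22, 4.45, 4.34 and 4.43 in PBS (change -0.24, limma adjusted p = 0.834). In the mouse gene table the Thra gene overlaps Nr1d1, so the signals of these genes may not be fully separate. The gene spans of Esrra and Trmt112, Nr1i3 and Tomm40l, Nr2c2 and Mrps25, and Nr1h3 and Acp2 overlap likewise. Rara overlaps Gm46294, Thrb LOC115488350 and Nr4a2 LOC105244150, which that gene table also counts as protein-coding.

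Nr1d1 and Nr1d2, which encode the clock repressors REV-ERB alpha and beta, kept high signal in both groups. Nr1d1 read 10.07, 10.20, 10.47, 10.12 and 10.50 in G-CSF, against 10.43, 10.45, 10.43 and 10.52 in PBS. The PBS arrays lay within 0.1 of each other on the log2 scale, while 3 G-CSF arrays were below all of them and the other 2 among them. The change was -0.19 (SE 0.14, limma adjusted p = 0.834, 95% interval -0.49 to 0.12). Nr1d2 was at 0.09, and Rora and Rorb, receptors that compete with REV-ERB for the same DNA element and activate there, at -0.11 and -0.06. Among 14 clock partners with a probe set 1 rose and 0 fell. Bhlhe40, a repressor of the clock that is also induced by stress, rose 3.26-fold, to 7.82 ± 0.57 in G-CSF (SD, n = 5) against 6.12 ± 0.38 in PBS (SD, n = 4; limma adjusted p = 0.00837, and 0.0278 without PBS replicate 3). Its relative Bhlhe41 was at 0.93 (adjusted p = 0.146). The activators Clock and Arntl were at -0.42 and -0.33, Per1, Per2 and Per3 at -0.28, 0.33 and -0.27, and Cry1 and Cry2 at -0.45 and -0.08. The output factors Tef, Dbp, Hlf and Nfil3 were at -0.43, -0.24, -0.02 and 0.12, and Ciart at -0.08. The smallest adjusted p among these 12 was that of Tef (0.272). The sources used here do not give the time of day of harvest.

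The 3 NR4A receptors are immediate early genes, made within a short time of a stimulus and also of tissue handling. They are shown by their promoters because their values moved together from array to array. Each line gives the 250 bases before the RefSeq transcription start, 5′ to 3′ on the strand of the gene, in build GRCm38.p6: chr15:101266596-101266845 (plus strand) for Nr4a1, chr2:57124004-57124253 (minus strand) for Nr4a2 and chr4:48045055-48045304 (plus strand) for Nr4a3. Capitals mark TGACG and its reverse complement CGTCA, the core of the cyclic AMP response element.
Nr4a1: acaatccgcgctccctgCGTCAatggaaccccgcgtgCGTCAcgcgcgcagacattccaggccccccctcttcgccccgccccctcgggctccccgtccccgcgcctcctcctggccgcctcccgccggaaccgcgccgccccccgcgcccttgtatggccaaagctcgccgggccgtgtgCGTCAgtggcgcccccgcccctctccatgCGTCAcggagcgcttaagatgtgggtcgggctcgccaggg
Nr4a2: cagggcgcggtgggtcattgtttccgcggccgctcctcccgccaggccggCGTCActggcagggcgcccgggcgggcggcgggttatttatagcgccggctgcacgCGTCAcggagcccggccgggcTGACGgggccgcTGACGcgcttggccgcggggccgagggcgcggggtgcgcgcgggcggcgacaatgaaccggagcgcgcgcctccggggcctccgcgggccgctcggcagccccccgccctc
Nr4a3: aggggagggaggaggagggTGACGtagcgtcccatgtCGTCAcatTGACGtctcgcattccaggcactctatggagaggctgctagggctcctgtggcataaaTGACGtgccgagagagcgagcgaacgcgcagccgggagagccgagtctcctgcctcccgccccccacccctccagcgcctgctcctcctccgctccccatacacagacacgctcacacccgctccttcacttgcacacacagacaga
Each of the 3 windows held 4 matches. Of all 32851 promoter windows of this length 17.8% held at least 1 match and 0.137% held 4 or more. The cutoff of 4 equals the count in the 3 NR4A windows, so the 0.137% describes them and tests nothing. Of the 58 windows of the receptors 13 held at least 1, and those with 4 or more were these 3. The matches are a description of letters, not measured binding sites.

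Nr4a1 (Nur77) read 10.65, 10.51, 7.10, 10.05 and 10.04 on G-CSF arrays 1 to 5, against 9.30, 8.65, 9.11 and 9.67 on PBS arrays 1 to 4. Nr4a2 (Nurr1) read 8.25, 7.43, 5.44, 7.44 and 7.43 in G-CSF, against 6.79, 6.28, 6.70 and 7.04 in PBS. Nr4a3 (Nor1) read 7.38, 6.98, 5.36, 6.87 and 7.02 in G-CSF, against 6.67, 5.84, 6.22 and 6.60 in PBS. For each of the 3, G-CSF replicate 3 was the lowest of all 9 arrays, the other 4 G-CSF arrays lay above every PBS array, and G-CSF replicate 1 was the highest. Over all arrays 0 of the 3 passed. The change of Nr4a1 was 0.49 (SE 0.59, limma adjusted p = 0.937, 95% interval -0.79 to 1.77), that of Nr4a2 0.49 (SE 0.43, adjusted p = 0.879) and that of Nr4a3 0.39 (SE 0.35, adjusted p = 0.886). Without G-CSF replicate 3 they were 1.13, 0.93 and 0.73, and Nr4a1 passed (limma adjusted p = 0.0460) while Nr4a2 (0.0986) and Nr4a3 (0.178) did not, in a fit that called 1.08% of all probe sets. Without both replicates 3, a choice made after seeing the data, Nr4a1 did not pass (0.0926). The SD of Nr4a1 over the G-CSF arrays, 1.46, lay at percentile 99.95 of all probe sets, and those of Nr4a2 and Nr4a3 at 99.6 and 98.6.

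Other immediate early genes, chosen after their values were seen, were set beside them. Fos, Fosb, Egr1, Atf3 and Dusp1 also had their lowest value on G-CSF replicate 3, and Junb on PBS replicate 3. Fosb was 9.07 there, against 11.32 to 11.77 on the other G-CSF arrays and 10.38 to 11.39 on the PBS arrays. Atf3, like the NR4A genes, was higher on the other 4 G-CSF arrays (lowest 8.71) than on any PBS array (highest 8.52). Fos, Fosb, Egr1, Junb and Dusp1 overlapped between the groups also without G-CSF replicate 3. The part of sample handling in the NR4A values was not tested.

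**Figure D4:**
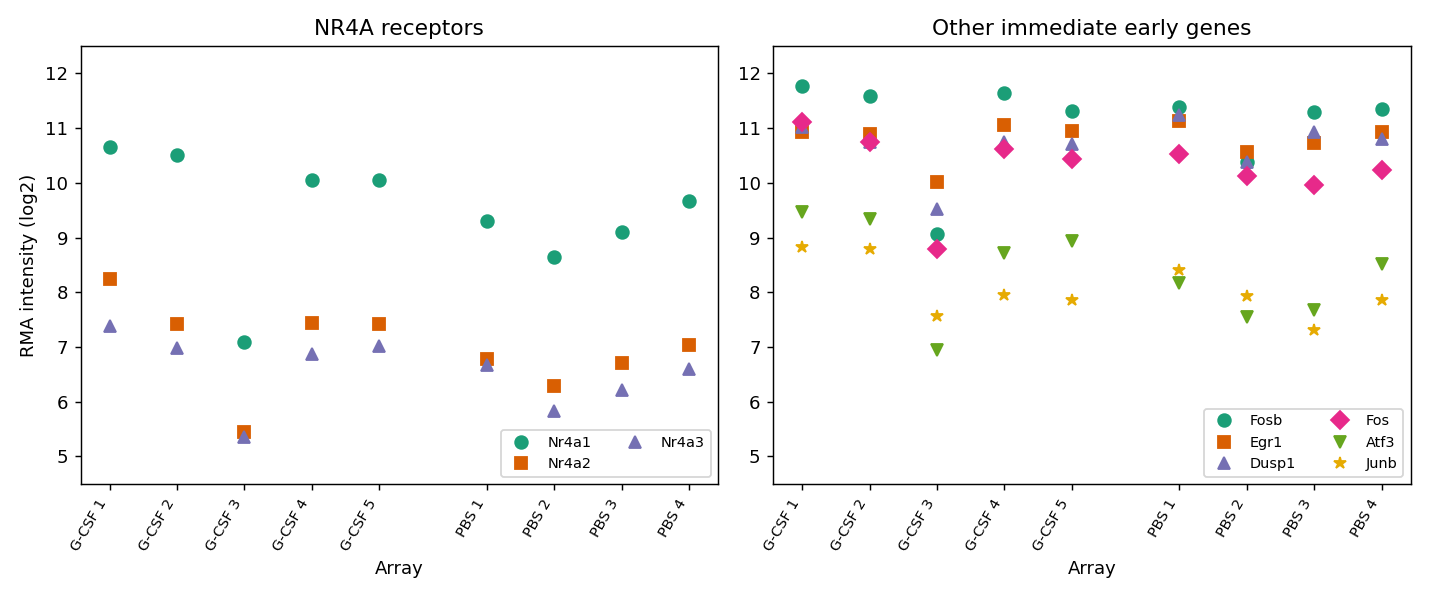
Log2 RMA intensity (vertical axis) of the 3 NR4A receptors (left) and of 6 other immediate early genes (right) on each of the 9 arrays, with 1 marker shape per gene. G-CSF replicate 3 holds the lowest value of each NR4A receptor (7.10, 5.44 and 5.36), and the other 4 G-CSF arrays lie above the PBS arrays.

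Of the oxysterol and bile acid receptors, Nr1h3 (liver X receptor alpha, a sensor of cholesterol products) read 5.99 to 6.89 in G-CSF (median 6.64) and 6.14 to 7.18 in PBS. Its change was -0.03, and in both groups the arrays of set 1 were higher than those of set 2. Nr1h4, the bile acid receptor, was dim, at 3.14, 3.62, 3.50, 3.49 and 3.51 in G-CSF and 3.45, 3.11, 3.49 and 3.49 in PBS (change 0.07, SE 0.15, limma adjusted p = 0.979). Of 11 measured liver X receptor targets 1 fell, Pltp, a phospholipid transfer protein (-1.21, limma adjusted p = 0.0312, 0.0856 without PBS replicate 3 and 0.0780 without G-CSF replicate 3), and 0 rose. With the array set as a block Apoe, a lipid carrier named after its values were seen, passed too (-0.60, adjusted p = 0.0419). Of 16 measured enzymes that make or clear receptor ligands 1 rose, Ch25h, which makes 25-hydroxycholesterol, a liver X receptor ligand. Ch25h averaged 5.70 ± 0.43 in G-CSF (SD, n = 5) and 4.64 ± 0.13 in PBS (SD, n = 4; change 1.06, limma adjusted p = 0.0239). Ch25h missed the threshold without PBS replicate 3 (0.0645) or G-CSF replicate 3 (0.0593) and passed in 3 of 9 such fits. Aldh1a2, which makes retinoic acid, also named after its values were seen, read 7.30, 7.66, 8.06, 9.37 and 9.47 in G-CSF, against 6.57, 6.13, 8.20 and 8.71 in PBS. The groups overlapped over all 9 arrays, while within each array set the G-CSF arrays lay above the PBS arrays. Its change was 0.97 (limma adjusted p = 0.735), and 1.16 with the set as a block (adjusted p = 0.00531). The sets were drawn from these same values, so the set-block adjusted p-values of Apoe and Aldh1a2 may be too small. The xenobiotic receptor Nr1i3 read 4.07, 4.25, 4.47, 4.54 and 4.57 in G-CSF and 3.87, 4.00, 4.41 and 4.29 in PBS (0.23, limma adjusted p = 0.812), and Nr1i2 was at 0.14.

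The oestrogen receptor Esr1, which acts on bone and marrow stroma, read 7.15, 7.28, 7.45, 7.58 and 7.52 in G-CSF, against 7.48, 7.51, 7.63 and 7.94 in PBS. The groups overlapped, with a change of -0.24 (SE 0.15, limma adjusted p = 0.773, 95% interval -0.57 to 0.09). Esr2 and Pgr, the progesterone receptor, were dim and at -0.12 and -0.07. Esrra, an orphan receptor that drives mitochondrial genes, had G-CSF values of 5.94, 5.89, 5.96, 6.02 and 5.86 and PBS values of 5.82, 5.71, 5.82 and 5.62. Every G-CSF array lay above every PBS array, but the difference was small (0.20, SE 0.12) and did not pass (limma adjusted p = 0.771). Esrrb and Esrrg were at 0.08 and 0.05. Of 9 measured targets of the oestrogen-related receptors 1 fell, Acadm, also counted among the PPAR targets, and 0 rose.

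The orphan receptors of the NR2 family did not pass. Nr2f1 (COUP-TFI) read 4.71, 4.65, 4.99, 4.90 and 4.63 in G-CSF, against 4.98, 4.95, 5.11 and 5.02 in PBS. G-CSF replicate 3 lay between PBS values and the other 4 G-CSF arrays below all of them (change -0.24, SE 0.13, limma adjusted p = 0.699). Nr2f2 (COUP-TFII) was at 0.02 and Nr2f6 at 0.26. Nr2c1 and Nr2c2, the testicular receptors, were at -0.19 and -0.13, and Nr2e1, known from neural stem cells, at 0.15. For Nr2c1 the values were 6.46, 6.19, 6.71, 6.44 and 6.27 in G-CSF and 6.68, 6.55, 6.54 and 6.62 in PBS. G-CSF replicate 3 was the highest of all and the other 4 G-CSF arrays lay below the PBS arrays (limma adjusted p = 0.837).

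The groups also overlapped for the remaining receptors, which were dim in PBS except for Nr6a1. Hnf4g, at 2.77, 2.92, 2.94, 3.11 and 2.79 in G-CSF and 2.91, 2.78, 3.50 and 3.10 in PBS, had a change of -0.17 (limma adjusted p = 0.908), and Hnf4a one of -0.05. Nr5a2, known for bile acid and steroid synthesis, was at 3.70, 3.80, 3.69, 3.70 and 3.58 in G-CSF and 3.82, 3.28, 4.40 and 4.04 in PBS (-0.19, limma adjusted p = 0.911). Nr5a1 and the germ cell factor Nr6a1 were at 0.11 and 0.16. Nr0b2, a receptor without a DNA-binding domain that represses others, was at 3.94, 4.01, 3.86, 3.87 and 3.96 in G-CSF and 3.61, 3.83, 3.83 and 3.91 in PBS (0.13, limma adjusted p = 0.901), and Nr0b1 at 0.04.

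The coregulators through which these receptors act showed 0 calls. Of 14 measured coactivators the smallest p was that of Ncoa7 (-0.47, limma adjusted p = 0.138), and of 9 measured corepressors that of Tbl1xr1 (-0.51, limma adjusted p = 0.534). Their median changes were -0.05 and 0.06. Over all lists of partners, coregulators, targets and ligand enzymes, with Pparg, 8 of 105 genes outside the 43 changed, 4 in each direction. Of all probe sets 1.62% were called in this fit. With the array set as a block 12 of these genes changed, where 2.74% of all probe sets were called. The lists, Pparg included, were chosen with earlier results of these data known, so these counts are a description only.

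**Figure D5:**
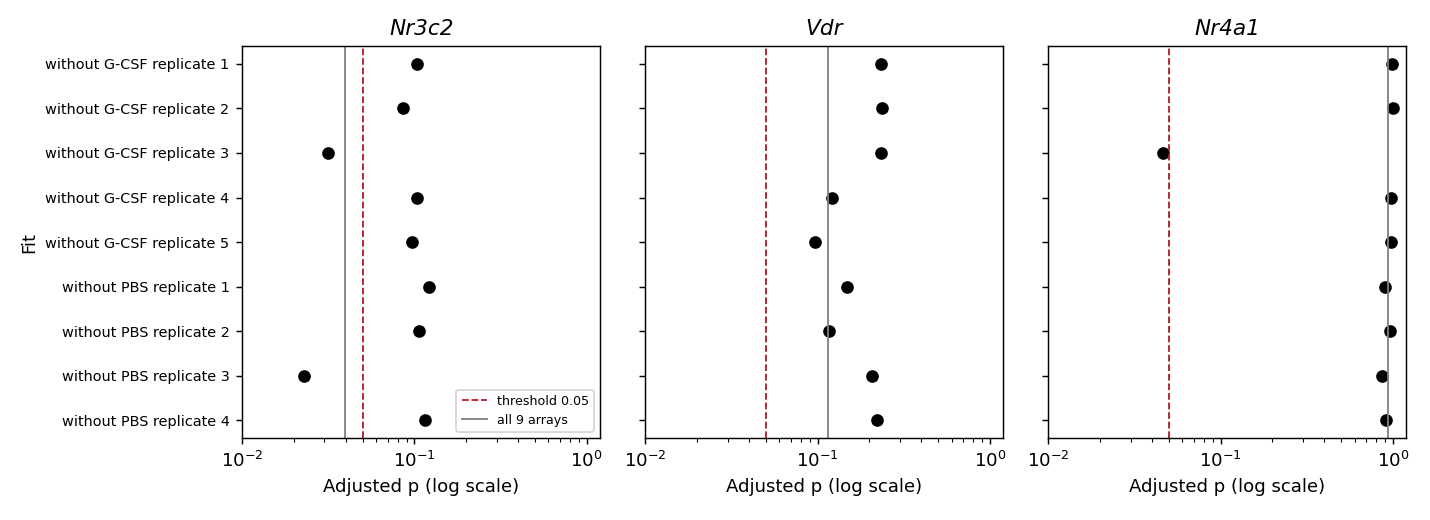
Adjusted p (horizontal axis, log scale) of Nr3c2, Vdr and Nr4a1 in the 9 limma fits that each left out 1 array (rows), with the threshold of 0.05 as a dashed line and the fit of all 9 arrays as a grey line. Nr3c2 passes in 2 of the 9 fits, Nr4a1 in 1 (without G-CSF replicate 3, 0.0460) and Vdr in 0.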

How the data were processed

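Array intensities were analysed for 5 G-CSF and 4 PBS samples of sorted CAR cells, grouped by title. The submitters' processing notes name RMA and Affymetrix Expression Console as what the authors used for the deposited intensity table, without versions. They are linear (array medians 34.72 to 37.24), so log2 was taken here. RMA scales arrays to each other, so changes are relative to other transcripts. The deposited arrays still did not share a common distribution (log2 interquartile range 2.45 on PBS replicate 3 to 2.99 on PBS replicate 1).

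Probe sets with 1 symbol (21789 of 35553) were fitted with limma 3.58.1 (lmFit, eBayes) in R 4.3.3, as a two-sided comparison of the 9 arrays with group as the only term and Benjamini-Hochberg adjustment over all of them and a threshold of 0.05. For list genes with several probe sets the brightest was used. In simulated data on 21789 probe sets, 6% of log2 changes of 0.5, 58% of 1, 94% of 1.5 and 92% of 2 were recovered (50 each), with 9 false calls. The simulated noise was normal and independent between arrays and probe sets, without the array sets seen here. These shares may therefore not hold for the real arrays. The number of arrays limits the precision. P-values weigh the group difference against the spread between these samples, each of which may be 1 animal or a pool.

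Members and the 11 related and 9 marker lists were chosen with earlier results of these data known. Values in every array were given for 20 receptors by rule (past the threshold in either fit, then the smallest p in each role group until 20 were reached) and for Nr4a1 and Nr4a3, added after their values were seen. Of each related list up to 4 genes past the threshold were named, otherwise that with the smallest p, and all clock genes. Alternatives were all or brighter probe sets, trend and robust eBayes, quantile normalisation, median centring, array weights, mean over probe sets, replicate or array-set block, each set alone, G-CSF replicates 4 and 5 averaged, other thresholds, each array left out and, added after seeing the data, G-CSF and PBS replicates 3 left out together. Promoters are RefSeq's, build GRCm38.p6; 39 of the 43 receptors had a window (not Nr3c1, Thra, Nr5a1 and Hnf4g). Protein sequences were not used here.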

Additional observations from a re-analysis of the deposited data

Results flagged for a closer look

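In 86 groups (43 receptors in G-CSF and in PBS) the gap between an extreme array and its nearest neighbour, as a share of the group's range, exceeded the 95% critical value (0.71 for 5 arrays, 0.829 for 4) for 6 arrays. Chance gives about 1 in 20 groups, so 6 in 86 is near that rate and no excess is read from it. The share over all probe sets is not given here. G-CSF replicate 3 was the low array for Nr4a1 (ratio 0.830, at 7.10 against 10.04 to 10.65), Nr4a3 (0.747, at 5.36 against 6.87 to 7.38) and Rora (0.748, at 6.29 against 6.96 to 7.18). Nr1h4 had a low array in each group, G-CSF replicate 1 (0.719, at 3.14) and PBS replicate 2 (0.886, at 3.11), both at dim signal. PBS replicate 4 was the high array for Nr1d1 (0.832, at 10.52 against 10.43 to 10.45), a group whose whole range is small.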

How the results depend on the processing

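The count of receptors past the threshold was 1 over all arrays. It was 0 with all probe sets (181 probe sets called), brighter probe sets only (Nr3c2 not tested), quantile normalisation, median centring, array set 1 alone (202 called), array set 2 alone (59 called), G-CSF replicates 4 and 5 averaged, or a threshold of 0.01 (149 called). It was 2 with the set as a block (598 called), and 0 to 2 with 1 array left out (210 to 318 called against 353, with 210 when PBS replicate 1, 222 when G-CSF replicate 1 and 224 when G-CSF replicate 4 was the one omitted). The related lists had 8 changed genes, 4 with all probe sets, in set 1 alone or at 0.01, 1 in set 2 alone, 12 with the set as a block, 5 without G-CSF and PBS replicates 3 together, and 5 (without PBS replicate 1, PBS replicate 4 or G-CSF replicate 3) to 7 with 1 array left out. The labels do not say whether replicate numbers pair the samples. Deviations of same-numbered arrays correlated at 0.28, 0.14, -0.28 and 0.35. Over all pairs the sign followed the array sets, so these values cannot decide whether samples were paired. With the replicate block, fitted without G-CSF replicate 5, 0 receptors (Nr3c2 at adjusted p = 0.211 in limma) and 180 probe sets were called. Leaving out that array without the block gave 241 calls, with Nr3c2 at a limma adjusted p of 0.0971. Of 474 values of 22 receptors under 22 alternatives, 9 turned sign, none of them called. In set 1 alone Hnf4g was 0.033, Nr5a2 0.18 and Rxrg 0.091, and in set 2 alone Nr3c1 was 0.023 and Thrb 0.071. Rxrg was 3.7e-05 with array weights and 0.0048 without both replicates 3, and ran from -0.24 to 0.0043 (without PBS replicate 4) with 1 array left out. Nr1h4 ran from -0.022 (without PBS replicate 2) to 0.15. Of the clock genes, in set 2 alone Cry1 was 0.068 and Ciart 0.35, and Ciart ran from -0.20 to 0.059 (0.0053 without G-CSF replicate 2). Cry2 was 0.18 without both replicates 3 and ran from -0.25 to 0.14 (without G-CSF replicate 3). Hlf was 0.075 with array weights, 0.0034 with the replicate block, 0.0047 with the set block, 0.53 in set 1 alone, 0.031 with replicates 4 and 5 averaged, 0.092 without both replicates 3, and ran from -0.27 to 0.17 with 1 array left out. The receptors above the 75th percentile in PBS numbered 12, or 13 against all probe sets of the table. The cause of these shifts was not tested.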
